A study of Homo sapiens with 16 samples.

Results

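The annexin and S100 calcium-binding genes were followed through the acquisition of gemcitabine resistance by T24, a human cell line from a bladder carcinoma. Members were found by symbol: ANXA followed by a number, ANXA8L1, S100A followed by a number, S100B, S100G, S100P, S100Z and S100PBP. The rule found 31 of the 39007 symbols in the expression table, namely 13 annexin genes, 17 S100 genes and S100PBP. The family was picked because the level of ANXA8 is sharply lower at P15, so the P15 values of ANXA8 and of its near-identical copy ANXA8L1 are given as a description, with no test.

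RNA sequencing covered 16 libraries, 4 for each of 4 phases: parental T24 cells (P0) and gemcitabine-resistant T24 cells at the early phase P3, the intermediate phase P7 and the late phase P15. All 4 groups were grown in DMEM with fetal bovine serum and antibiotics. The titles of all 16 libraries carry the letters NT, which the labels do not explain, and whether the drug was present at harvest is not given in the sources used here. The resistant cells form a single derived line, GRC1, so each phase is one stage of one selection, and nothing in the labels places the 4 libraries of a phase in separate cultures. The p-values below therefore measure the spread between libraries, which may be technical. Time in culture and exposure to the drug advanced together along the phases and cannot be told apart. Some index numbers that end the titles recur between phases, and the part of any sequencing batch in the differences was not tested.

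Annexins are cytosolic proteins that bind negatively charged phospholipids of membranes when calcium rises, and they take part in vesicle traffic, membrane repair and the linking of membranes to actin. S100 proteins are small EF-hand proteins, mostly dimers, that change shape on binding calcium and then dock onto partner proteins. Some are also secreted and act on receptors such as AGER and TLR4. The families meet in the complex of ANXA2 with S100A10, which sits under the plasma membrane and binds plasminogen. Most S100A genes lie in one cluster on chromosome 1q21, whereas annexin genes are scattered over many chromosomes.

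Sequence just before the transcription start is shown for 6 members on which the results turn: ANXA6, S100A2 and S100A3, which had the largest tested decreases, ANXA1, which had the only called increase, and S100A10 with its neighbour S100A11, which differed from each other. The sequences are RefSeq windows of GRCh38.p14, read along the strand of the gene from 250 bases before the start up to the start or to the first base that GENCODE release 44 annotates as exon. Capitals mark matches to TGACTCA (the AP-1 motif), TATAAA (the TATA box), CACGTG (the E-box) or GGGCGG (the GC box) on either strand, and where RefSeq gives several starts the window with the most matches is shown.
ANXA6, chr5:151157816-151158029, minus strand: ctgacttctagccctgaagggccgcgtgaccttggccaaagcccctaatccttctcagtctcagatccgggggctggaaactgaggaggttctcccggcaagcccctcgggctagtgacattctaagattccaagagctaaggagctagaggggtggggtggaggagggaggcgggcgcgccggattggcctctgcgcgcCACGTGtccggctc
S100A2, chr1:153565845-153566094, minus strand: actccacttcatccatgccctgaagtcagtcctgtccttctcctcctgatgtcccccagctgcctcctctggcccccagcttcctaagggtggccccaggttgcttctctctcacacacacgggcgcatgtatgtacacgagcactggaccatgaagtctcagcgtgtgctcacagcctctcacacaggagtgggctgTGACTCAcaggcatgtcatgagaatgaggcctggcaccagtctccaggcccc
S100A3, chr1:153549259-153549508, minus strand: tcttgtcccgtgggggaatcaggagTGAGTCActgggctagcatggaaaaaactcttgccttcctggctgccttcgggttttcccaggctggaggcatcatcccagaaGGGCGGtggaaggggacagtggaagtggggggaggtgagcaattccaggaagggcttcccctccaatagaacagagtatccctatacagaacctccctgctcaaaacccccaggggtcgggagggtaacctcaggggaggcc
ANXA1, chr9:73151615-73151864, plus strand: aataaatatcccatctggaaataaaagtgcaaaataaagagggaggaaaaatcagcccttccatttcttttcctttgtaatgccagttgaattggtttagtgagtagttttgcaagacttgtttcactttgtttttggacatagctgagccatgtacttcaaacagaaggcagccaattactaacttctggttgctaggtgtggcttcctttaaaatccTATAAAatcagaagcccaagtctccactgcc
S100A10, chr1:151993860-151994109, minus strand: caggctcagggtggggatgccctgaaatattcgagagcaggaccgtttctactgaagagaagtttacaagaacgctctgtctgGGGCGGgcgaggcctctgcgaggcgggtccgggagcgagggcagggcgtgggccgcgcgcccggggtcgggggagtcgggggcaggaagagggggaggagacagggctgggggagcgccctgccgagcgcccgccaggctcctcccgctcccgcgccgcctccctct
S100A11, chr1:152037005-152037254, minus strand: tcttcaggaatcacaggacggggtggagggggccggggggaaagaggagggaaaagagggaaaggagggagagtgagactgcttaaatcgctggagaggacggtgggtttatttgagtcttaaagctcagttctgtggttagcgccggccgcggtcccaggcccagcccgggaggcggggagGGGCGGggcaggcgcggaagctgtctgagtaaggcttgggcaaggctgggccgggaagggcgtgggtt
A match to TGACTCA began 52 bases before the start of S100A2 and, on the reverse strand, 225 bases before that of S100A3. ANXA1 had TATAAA 31 bases before its start and ANXA6 had CACGTG 50 bases before its start. S100A10 and S100A11 each had 1 GGGCGG and none of the other 3 motifs. Over all 35116 RefSeq windows of 250 bases, on either strand, TGACTCA was in 4.2%, TATAAA in 10.7%, CACGTG in 6.34% and GGGCGG in 42.6%, and the 4 motifs do not overlap one another in the windows shown. Of the 39 windows of members, 5 had TGACTCA, 11 had TATAAA, 2 had CACGTG and 16 had GGGCGG. Counted by gene, 5 of the 28 members with a window had TGACTCA (ANXA2, S100A2, S100A3, S100A5 and S100PBP). TATAAA was in 11, CACGTG in 2 and GGGCGG in 15, in at least 1 window each. Counts by gene are not like the shares above, which are by window. All 250 bases of the S100PBP window with TGACTCA lie in annotated exons. These matches describe letters and not binding.

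Of the 31 members, 22 had a mean above 1 CPM (the count of a gene scaled to a common library total) over the 16 libraries and were tested, namely 12 annexins, 9 S100A genes and S100PBP. Levels below are log2(CPM + 1), as deposited, unless CPM is named, so the fold change of a gene near 1 CPM is understated. A gene was called when the Benjamini-Hochberg adjusted p of limma over 13249 genes was below 0.05 and the log2 fold change was at least 1 in size. The depth was estimated at 33800000 to 50000000 counts per library, so 1 count stands for 0.02 to 0.0296 CPM. Libraries of a phase correlated across genes with Pearson r of 0.9965 to 0.9984.

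The 9 members below 1 CPM were S100A1, S100A7, S100A9, S100A14, S100B, S100G, S100P, S100Z and ANXA13, and of these S100A7 was listed at 0 in all 16 libraries. Urothelial differentiation markers (the uroplakins) summed to between 0.826 and 3.53 CPM in every library. Epithelial markers summed to 2075 to 2153 CPM for P0, 2347 to 2484 for P3, 1666 to 1814 for P7 and 673 to 751 for P15. Within them KRT7 was at 9.90 ± 0.06 (SD, n = 4) in P0 and 3.64 ± 0.07 in P15, and KRT8 at 9.21 ± 0.02 and 6.16 ± 0.04, whereas KRT18 was at 8.88 ± 0.03 in P0 and 9.31 ± 0.07 in P15, where it made up most of the sum. CDH1 stayed at or below 0.13 in P0 and P15. Squamous or basal markers reached 13.8 to 20.6 CPM in P15 and at most 3.4 CPM elsewhere, nearly all of the P15 sum being KRT17 (4.02 ± 0.26 on the log2 scale), with DSG3 and TP63 both at 0.02 ± 0.04. Leukocyte markers summed to 6.27 to 8.56 CPM in P0, nearly all of it CD14, and to 0.0943 to 0.46 in P15, with PTPRC at or below 0.08 on the log2 scale in both. Fibroblast and endothelial markers summed to at most 3.48 and 7.95 CPM in any library. In bulk libraries, fewer cells of a kind and less RNA per cell cannot be told apart, and the part of these marker changes in the annexin and S100 results was not tested.

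Together, the annexin genes took 5096 ± 46 CPM (SD, n = 4) for P0, 5695 ± 8 for P3, 5011 ± 40 for P7 and 2464 ± 69 for P15. The S100 genes took 3798 ± 112, 3304 ± 16, 3723 ± 61 and 1747 ± 53 CPM in the same order. The annexin sum includes ANXA8 and ANXA8L1. Both sums stood lowest in P15, where no library overlapped one of an earlier phase.

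**Figure D1:**
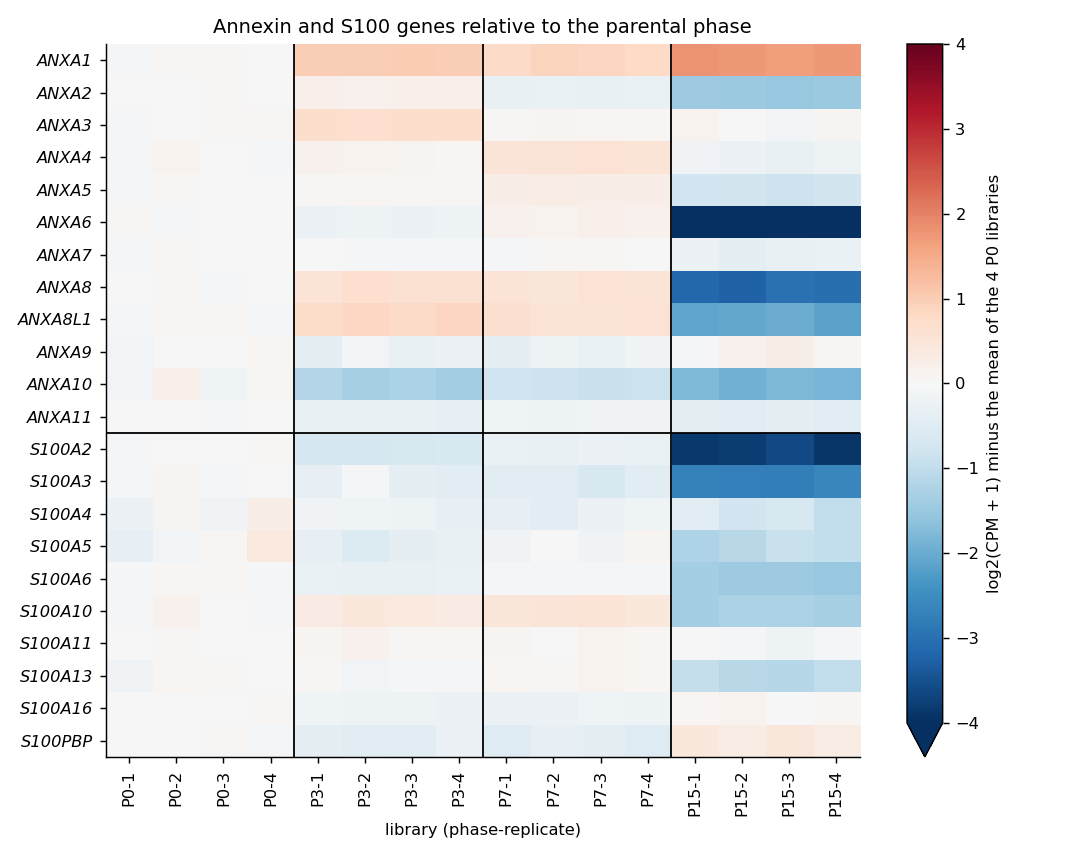
Level of the 22 tested members (rows, annexins above the line) in the 16 libraries (columns, phase and replicate), as log2(CPM + 1) minus the mean of the 4 P0 libraries, with the colour scale ending at 4 in either direction. The blue blocks in P15 are deepest for ANXA6, S100A2, ANXA8 and S100A3, whereas ANXA1 is red in every resistant library.

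Counted by comparison, 1 of 22 tested members was called in P3 against P0 (ANXA10, lower), where 4.47% of all tested genes were called, 1.95% higher and 2.51% lower. ANXA10 passed the filter of 1 CPM through its P0 libraries, which favoured the lower direction of this call. By adjusted p alone, 19 of 22 members passed, against 68.7% of all tested genes, and their median log2 fold change was -0.13 against -0.03 for all. From P3 to P7, 0 of 22 were called by limma, against 1.84% of all tested genes (0.996% higher, 0.845% lower), while 14 of 22 passed on adjusted p alone, against 58.2%, and 15 had an unadjusted p below 0.05. The median was 0.03 for members and 0.01 for all.

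With ANXA8 and ANXA8L1 set aside, 10 of 20 members were called in P15 against P7, all lower: ANXA6, S100A2, S100A3, S100A10, S100A6, ANXA2, S100A13, ANXA5, S100A5 and ANXA10. Over all tested genes, 25.5% were called (13.4% higher, 12.1% lower). From P0 to P15, 10 of 20 were called, 9 lower and ANXA1 higher, beside 23.6% of all tested genes (12.2% higher, 11.5% lower). By adjusted p alone, 19 of 20 and 17 of 20 members passed, beside 86.4% and 86.2% of all genes. Members' medians were -0.89 and -0.73, beside 0.06 and 0.04 for all genes. As the family was picked from the P15 contrast, nothing is read from these counts, and both P15 comparisons use the same P15 libraries.

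**Figure D2:**
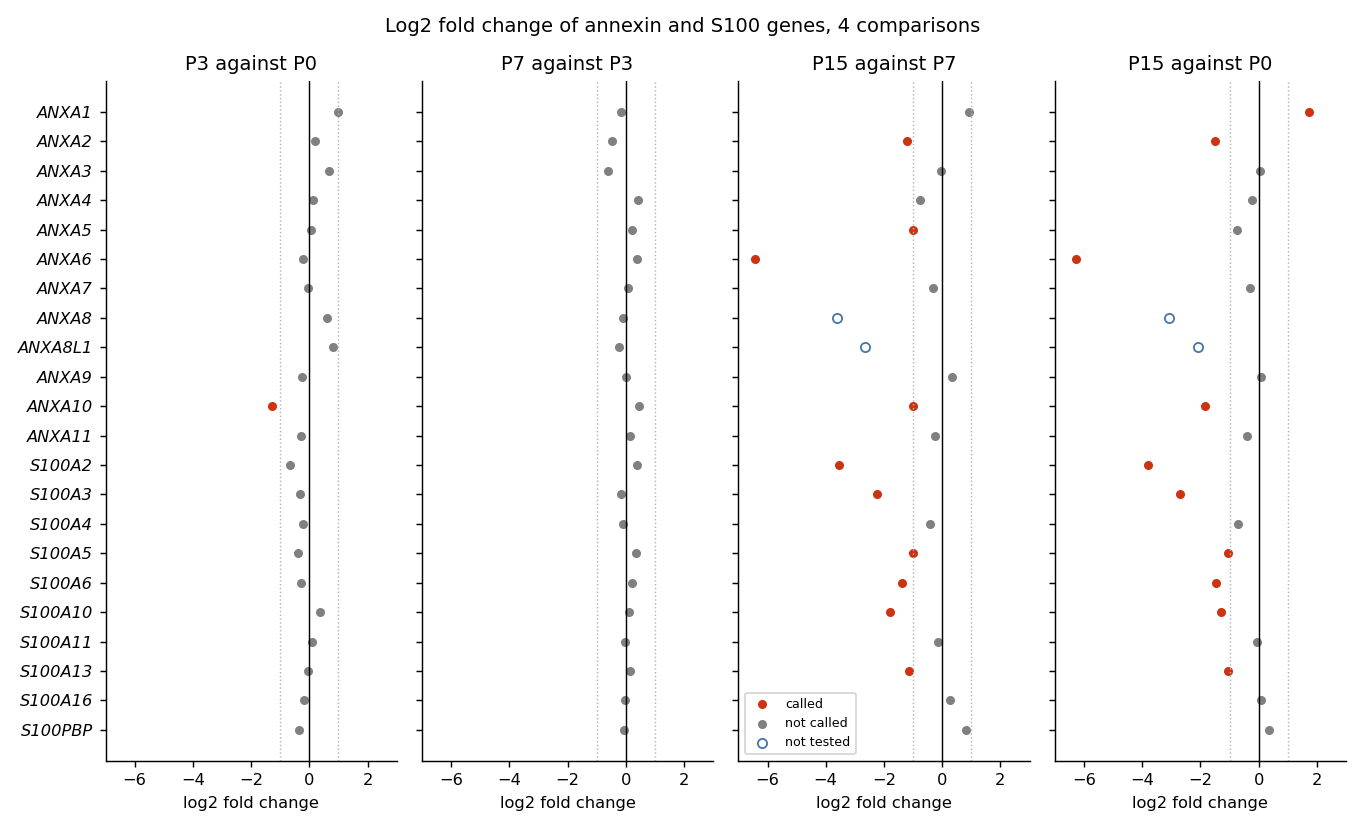
Log2 fold change (points) of the 22 tested members in the 4 comparisons, later phase minus earlier phase, with standard errors of 0.03 to 0.12 hidden by the points. Red points are called, grey points are not, open points (ANXA8 and ANXA8L1 at P15) were not tested, and dotted lines mark a log2 fold change of 1. ANXA10 is the only red point in P3 against P0, no point is red in P7 against P3, and 10 are red in each P15 panel.

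Per kilobase of annotated exon, S100A6 was the most abundant member in every phase, at 2176 ± 79 CPM per kb in P0 and 795 ± 37 in P15. S100A11, which binds annexin A1 and takes part in membrane repair, ranked next in each phase, at 637 ± 17 CPM per kb in P0 and 606 ± 31 in P15. S100A10 and S100A2 followed in P0, at 320 ± 25 and 319 ± 10 CPM per kb, a difference within their spread, and then ANXA2 at 244 ± 4.9 and ANXA5 at 225 ± 5.8. In P15 the third place was held by S100A16 at 219 ± 9.4 CPM per kb, followed by ANXA5 at 134 ± 4.3, S100A10 at 129 ± 4.1 and ANXA1 at 117 ± 5. ANXA6 moved from 132 ± 3.2 CPM per kb, the eighth place, in P0 to 1.53 ± 0.093, the 17th place, in P15. These ranks depend on the length used, the union of all annotated exons, which is 11.57 kb for ANXA2 and 0.97 kb for S100A6. In CPM without this division ANXA2 was the highest member, at 2826 in P0 and 1006 in P15, beside 2113 and 772 for S100A6.

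ANXA6 had the largest tested change of the family. It encodes the largest annexin, with a doubled core, which acts at endosomes and in cholesterol traffic, and it lies on chromosome 5 (151100706 to 151157815, minus strand, GRCh38). Its level was 9.54, 9.46, 9.49 and 9.52 in the P0 libraries, 9.27, 9.31, 9.25 and 9.29 in P3, and 9.66, 9.65, 9.69 and 9.68 in P7. In P15 the 4 libraries stood at 3.29, 3.31, 3.16 and 3.17, far below all others. Mean CPM was 724 in P0 and 8.41 in P15, an 86.2-fold difference, and the log2 fold change was -6.27 (SE 0.03, limma adjusted p = 3.0e-34) against P0 and -6.44 (SE 0.03, adjusted p = 1.6e-34) against P7. Earlier differences were small beside it, at -0.22 from P0 to P3 and 0.39 from P3 to P7.

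ANXA5, the phosphatidylserine binder used to stain apoptotic cells, was compared with ANXA6 library by library. It stood at 9.37 ± 0.04 (SD, n = 4) for P0, 9.44 ± 0.02 for P3, 9.64 ± 0.02 for P7 and 8.62 ± 0.05 for P15. The decrease from P7 to P15 was called (log2 fold change -1.02, SE 0.03, adjusted p = 1.9e-20), and that from P0 was under 2-fold at -0.75 (SE 0.03, adjusted p = 1.2e-17). ANXA6 minus ANXA5 moved by -5.52 between P0 and P15 (exact permutation test, p = 0.029, adjusted over 5 such pairs 0.036). Given the separate changes of the genes, this p could only be the smallest possible, and nothing is read from it.

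Within 1 Mb of ANXA6, 18 other genes were tested, and their median log2 fold change from P0 to P15 was -0.12, with 5 called lower and none called higher. Over all tested genes, 11.5% were called lower and 12.2% higher. The nearest tested genes on either side, TNIP1 and CCDC69, were at -0.41 and -1.51. SPARC, a secreted matrix protein gene further along, was at -7.14, CD74 at -4.96, ARSI at -2.6 and GPX3 at -2.0, whereas GM2A was at 0.45 and SLC36A1 at 0.59. Genes with large decreases lay among genes with small differences.

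ANXA2 encodes the membrane and actin binding partner of S100A10, and the pair of transcripts is described together. ANXA2 was at 11.47, 11.43, 11.5 and 11.46 in P0 and at 10.01, 9.99, 9.93 and 9.97 in P15, with P3 at 11.65 ± 0.01 and P7 at 11.18 ± 0.01. S100A10 was at 8.28, 8.50, 8.31 and 8.27 for P0, 8.71 ± 0.04 for P3, 8.83 ± 0.05 for P7, and 6.99, 7.08, 7.08 and 7.02 for P15. Neither gene's P15 libraries overlapped those of any earlier phase. Both fell from P0 to P15, ANXA2 by 1.49 (SE 0.03, adjusted p = 8.4e-24) and S100A10 by 1.30 (SE 0.04, adjusted p = 2.3e-19) on the log2 scale.

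The difference between the partners, ANXA2 minus S100A10, moved by -0.19 from P0 to P15 (exact permutation test, p = 0.086, adjusted over 5 pairs 0.086). It ran from 2.93 to 3.19 in P0 and from 2.85 to 3.02 in P15. The overlap rested on P0 replicate 2, where S100A10 was highest at 8.50. As 0.029 is the smallest p that 4 against 4 libraries allow in this test, 1 library decides the outcome. Whether the partners kept step is therefore not settled by it. The earlier steps were unlike for the partners: from P3 to P7, ANXA2 was lower by 0.47 on the log2 scale (adjusted p = 1.6e-12) while S100A10 was higher by 0.12 (adjusted p = 0.016). AHNAK, a giant scaffold protein that binds this complex, also fell, from 11.02 ± 0.37 in P0 to 9.51 ± 0.15 in P15 (log2 fold change -1.51, SE 0.13, adjusted p = 1.2e-10). ANXA2R, which encodes a reported receptor for annexin A2, rose from 2.20 ± 0.11 to 3.23 ± 0.23 (log2 fold change 1.03, SE 0.10, adjusted p = 1.5e-09). The processed pseudogene ANXA2P2, which shares 2.07% of the 100-base words of ANXA2 transcripts, was at 3.29 ± 0.13 in P0 and 2.30 ± 0.11 in P15. One P7 library had ANXA2P2 at 4.67, against ANXA2 values of 11.17 to 11.19 in that phase.

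ANXA1, a target of glucocorticoids whose protein quiets inflammation through formyl peptide receptors, was the only member called higher at P15. Its libraries stood at 7.24, 7.33, 7.33 and 7.28 for P0, then at 8.27, 8.26, 8.31 and 8.28 for P3, 8.07, 8.19, 8.15 and 8.08 for P7, and 9.10, 9.02, 8.95 and 9.04 for P15. No 2 successive phases overlapped. Mean CPM was 156 for P0, 310 for P3, 278 for P7 and 521 for P15. The log2 fold change was 0.98 (SE 0.03, adjusted p = 1.3e-17) from P0 to P3, just under the 2-fold bound, then -0.16, then 0.91, and 1.73 (SE 0.03, adjusted p = 1.6e-23) from P0 to P15.

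The levels of ANXA1 and ANXA2 drew together: ANXA1 minus ANXA2 was -4.17 ± 0.05 for P0 and -0.95 ± 0.03 for P15 on the log2 scale. The shift of 3.22 was at the smallest p that 4 against 4 libraries allow (exact permutation test, p = 0.029 over 70 orders, adjusted over 5 pairs 0.036). As ANXA1 rose and ANXA2 fell with no overlap of P0 and P15 libraries, no other p was possible, and nothing is read from it. The enzyme PLA2G4A, a phospholipase that annexin A1 can inhibit, was at 4.39 ± 0.17 for P0, 2.86 ± 0.18 for P3, 3.70 ± 0.09 for P7 and 5.14 ± 0.06 for P15. It fell from P0 to P3 (log2 fold change -1.53, SE 0.08, adjusted p = 8.5e-14) and rose from P7 to P15 (1.45, SE 0.08, adjusted p = 4.1e-14).

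**Figure D3:**
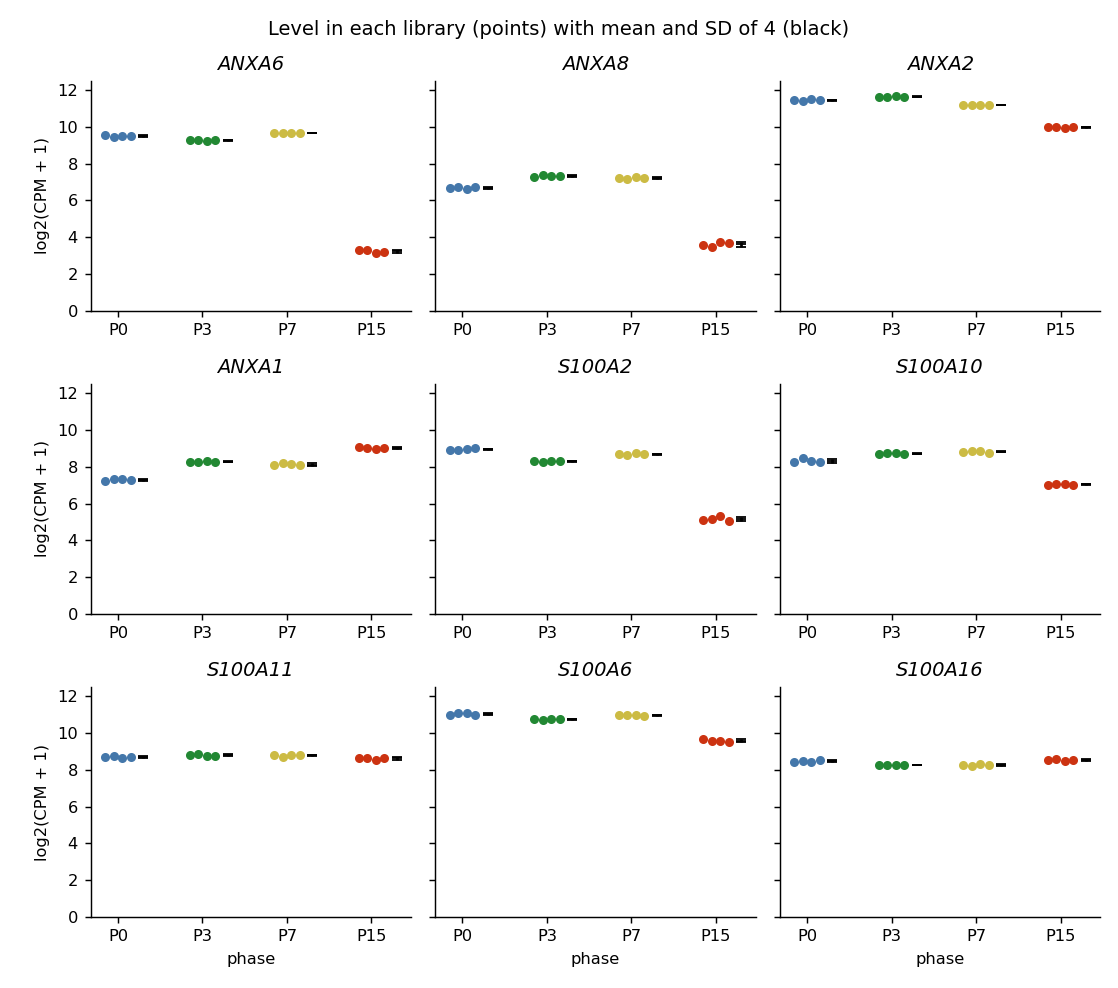
Level, as log2(CPM + 1), of 9 members in each library (coloured points, 4 per phase) with the phase mean and SD in black. ANXA6, ANXA8, S100A2, S100A10, S100A6 and ANXA2 sit lowest in P15, ANXA1 sits highest there, and S100A11 and S100A16 stay between 8.22 and 8.87 in all 16 libraries.

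ANXA8, an annexin of squamous and other epithelia whose product binds late endosomes, is the gene for which the family was picked. Its level was 6.66, 6.75, 6.63 and 6.72 for P0, 7.25, 7.37, 7.31 and 7.31 for P3, 7.23, 7.18, 7.27 and 7.24 for P7, and 3.55, 3.46, 3.72 and 3.69 for P15. Mean CPM was 102, 158, 149 and 11.2. The change from P0 to P3, which the choice did not use, was 0.62 on the log2 scale (SE 0.05, adjusted p = 3.5e-11), a ratio of 1.54 in mean CPM, and P7 differed from P3 by -0.08 (SE 0.05, adjusted p = 0.15).

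ANXA8L1 is a near-identical copy elsewhere on chromosome 10: of the distinct 100-base words in its transcripts, 67.3% are shared with other genes, mostly ANXA8, and 55.2% of those of ANXA8 are shared in turn. How reads that match both were counted is not given in the sources used here, so the split between the copies is uncertain. ANXA8L1 stood at 4.21 ± 0.07 for P0, 5.01 ± 0.06 for P3, 4.79 ± 0.04 for P7 and 2.14 ± 0.06 for P15. From P0 to P3 the log2 fold change was 0.80 (SE 0.06, adjusted p = 6.2e-12). The CPM ratio of ANXA8 to ANXA8L1 was 5.36 to 6.23 over the P0 libraries, 4.8 to 5.19 in P3, 5.36 to 5.83 in P7 and 2.86 to 3.69 in P15.

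Within 1 Mb of ANXA8, 5 other symbols were tested, of which 2 were called higher and none lower at P15 against P0, with a median log2 fold change of 0.68. Over all tested genes, 12.2% were called higher and 11.5% lower, and 5 symbols are too few to set against these shares. AGAP9 was at 1.24, BMS1P1 at 1.22, MAPK8 at 0.68, ZNF488 at 0.48 and ARHGAP22 at -0.16. Words shared with other genes were not counted for these 5 symbols, so how far their reads are their own is not known.

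ANXA10, an annexin of gastric and urothelial epithelium, was called lower in P3 against P0. It passed the filter of 1 CPM through its P0 libraries. The filter therefore favoured the lower direction of both calls made against P0, that of P3 and that of P15. It stood at 2.0, 2.31, 1.94 and 2.14 for P0, 0.93, 0.76, 0.83 and 0.72 for P3, 1.31, 1.28, 1.22 and 1.25 for P7, and 0.32, 0.19, 0.29 and 0.24 for P15. The phases did not overlap, and the order from highest to lowest was P0, P7, P3, P15. Mean CPM was 3.3 for P0, 0.756 for P3, 1.4 for P7 and 0.198 for P15, so the last value rests on few counts per library. The log2 fold change was -1.29 (SE 0.09, adjusted p = 1.4e-11) from P0 to P3 and -1.84 (SE 0.09, adjusted p = 2.8e-15) from P0 to P15. At a pseudocount of 5 they became -0.53 and -0.67, and neither was called any longer.

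The other tested annexins differed by less than 2-fold in every comparison. ANXA3 was higher in P3 alone, at 8.09 ± 0.02 against 7.40 ± 0.05 in P0, 7.48 ± 0.03 in P7 and 7.44 ± 0.11 in P15 (P3 against P0 0.69, SE 0.04, adjusted p = 4.7e-13; P15 against P0 0.03, adjusted p = 0.46). ANXA4, which binds membranes of secretory epithelia, was highest in P7 at 6.58 ± 0.03 and lowest in P15 at 5.81 ± 0.07. ANXA7 and ANXA11, the annexins with long proline-rich N termini, spanned 7.02 to 7.43 and 7.29 to 7.74 over the 16 libraries. ANXA9 was near the filter, between 1.2 and 1.79, and its P15 and P0 libraries overlapped.

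The 9 S100A genes above the filter all lie on 1q21. At P15 against P0, 6 of them were called lower and 0 higher, from which nothing is read, as above. S100A2, a p53-linked gene of basal epithelia, had the largest decrease among them. Its level was 8.90, 8.92, 8.97 and 9.0 for P0, 8.29, 8.27, 8.30 and 8.34 for P3, 8.69, 8.66, 8.73 and 8.67 for P7, and 5.09, 5.16, 5.33 and 5.05 for P15. Mean CPM dropped from 493 in P0 to 34.8 in P15, a 14.2-fold difference, with a log2 fold change of -3.79 (SE 0.04, adjusted p = 2.0e-28) against P0. P3 was already 0.65 below P0 on the log2 scale (adjusted p = 2.6e-12), and P7 lay between P3 and P0.

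S100A3, known from hair cuticle, lies next to S100A2 within the annotated span of S100A4, with no exonic base shared. Its libraries were at 3.59, 3.78, 3.63 and 3.70 for P0, 3.37 ± 0.16 for P3, 3.19 ± 0.08 for P7, and 0.97, 0.93, 0.90 and 1.05 for P15. It fell by 2.71 on the log2 scale from P0 to P15 (SE 0.08, adjusted p = 6.4e-20), and mean CPM went from 11.8 to 0.95. S100A4, whose product binds myosin and is linked to metastasis, had means of 3.31 ± 0.23 for P0 and 2.6 ± 0.23 for P15, which differed by less than 2-fold (log2 fold change -0.71, SE 0.11, adjusted p = 1.3e-06).

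S100A6 (calcyclin), the most abundant member per kilobase of annotated exon, ran from 11 to 11.10 over the P0 libraries. P3 was at 10.75 ± 0.02, P7 at 10.97 ± 0.02, and the 4 P15 libraries at 9.68, 9.59, 9.58 and 9.52, below all others. The decrease from P0 to P15 was 2.74-fold in mean CPM, from 2113 to 772 (log2 fold change -1.45, SE 0.03, adjusted p = 3.7e-22). Its neighbour S100A5 was near the filter, at 1.13, 1.33, 1.5 and 1.83 in P0 and 0.23, 0.33, 0.56 and 0.46 in P15 (log2 fold change -1.05, SE 0.12, adjusted p = 2.1e-08). The 2-fold call was lost with quantile normalization (-0.79), without P0 replicate 4 (-0.93) and without P15 replicate 1 (-1.0). CACYBP, the calcyclin-binding protein, was at 7.6 ± 0.03 in P0 and 7.62 ± 0.05 in P15.

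S100A13, whose product takes part in the export of FGF1, was at 6.13, 6.37, 6.32 and 6.30 in P0 and at 5.34, 5.16, 5.15 and 5.29 in P15, and it fell by 1.04 on the log2 scale (SE 0.05, adjusted p = 1.5e-15). Of its exonic bases, 24.2% also belong to a same-strand GENCODE gene and 10.6% to S100A1 on the opposite strand, so its counts depend on how such reads were assigned, and the strand setting is not given in the sources used here. With a pseudocount of 5 its log2 fold change was -0.97.

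S100A11 and S100A16 were the abundant S100A genes without a called change. S100A11 was at 8.68, 8.75, 8.67 and 8.68 in P0 and at 8.67, 8.65, 8.51 and 8.66 in P15 (log2 fold change -0.07, SE 0.04, adjusted p = 0.068). S100A16, a widely expressed member, was at 8.44, 8.50, 8.44 and 8.51 for P0, 8.27 ± 0.02 for P3, 8.26 ± 0.04 for P7, and 8.56, 8.61, 8.46 and 8.54 for P15 (P15 against P0 0.07, SE 0.03, adjusted p = 0.044). P0 and P15 overlapped for both genes.

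Genes of the cluster differed from one another. S100A10 minus S100A11, which are adjacent S100 genes, was -0.35 ± 0.07 in P0 and -1.58 ± 0.11 in P15, a shift of -1.23 (exact permutation test, p = 0.029, adjusted over 5 pairs 0.036). S100A6 and S100A16 are not adjacent, with S100A5, S100A4, S100A3 and S100A2 among the genes between them, and S100A6 minus S100A16 was 2.57 ± 0.06 in P0 and 1.05 ± 0.08 in P15, a shift of -1.52 (exact permutation test, p = 0.029, adjusted over 5 pairs 0.036). Given the levels of these genes above, both p-values could only be the smallest possible, so they add nothing to the levels. Within 1 Mb of S100A2, 22 tested genes outside the family had a median log2 fold change of -0.02 from P0 to P15, with 1 called higher and none lower. For S100A10, the 24 such genes had a median of 0.27, with 3 called higher and none lower. Over all tested genes, 12.2% were called higher and 11.5% lower in this comparison.

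**Figure D4:**
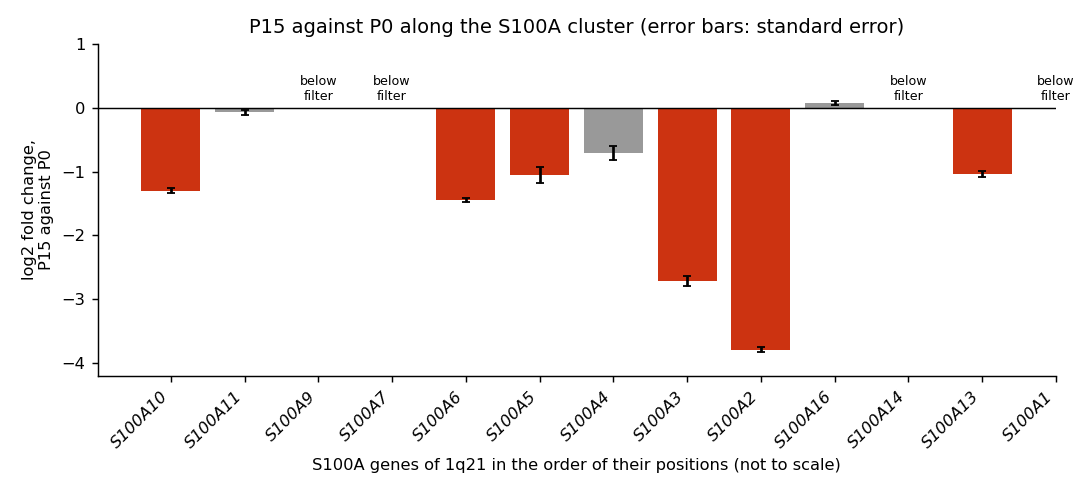
Log2 fold change from P0 to P15 (bars, error bars are standard errors) of the 13 S100A genes of 1q21 in the order of their positions, which are not drawn to scale. Red bars are called and grey bars are not, and 4 genes below 1 CPM have no bar. S100A6 to S100A2 are all below 0, with S100A2 deepest at -3.79, while S100A11 and S100A16 lie at -0.07 and 0.07.

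Genes of the epidermal differentiation complex, which lie inside the same stretch of chromosome 1, were almost silent: of 31 listed, 12 were in the table, none passed 1 CPM, and 6 were at 0 in all 16 libraries. S100P, an S100 gene of chromosome 4 often raised in carcinomas, was below the filter too. It was at 0, 0, 0.16 and 0 for P0, 0.66, 0.40, 0.66 and 0.72 for P3, 0.21, 0.36, 0.43 and 0.47 for P7, and 0, 0.19, 0.08 and 0.06 for P15. Its P3 and P7 libraries lay above all P0 and P15 libraries, at a mean of 0.532 CPM or less, and so rest on few counts. S100A14 was at 0.08 to 0.23 in P0 and 0.35 to 0.59 in P15. S100PBP, which encodes a nuclear protein that binds S100P, was at 5.34 ± 0.05 in P0, 4.90 ± 0.09 in P7 and 5.71 ± 0.07 in P15 (P15 against P7 0.81, SE 0.05, adjusted p = 6.7e-13), all under 2-fold.

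Receptors and partners of S100 and annexin proteins were counted from a list chosen with earlier results of these data known. Of 13 tested of 17 listed, 1 was called lower in P3 against P0 (PLA2G4A), beside 4.47% of all tested genes called. In P7 against P3, 0 were called by limma, beside 1.84%. There 11 had an unadjusted p below 0.05, and 58.2% of all tested genes passed on adjusted p alone, a stricter measure that is not like for like. Then 2 were called higher and 2 lower in P15 against P7, beside 25.5% of all tested genes called, and 1 higher and 2 lower in P15 against P0, beside 23.6%, with a median log2 fold change of 0.03. TLR4, the innate immune receptor of S100A8 and S100A9, was at 6.18 ± 0.05 for P0, 6.20 ± 0.03 for P3 and 5.95 ± 0.06 for P7 and fell to 0.06 to 0.13 for P15 (log2 fold change against P0 -6.10, SE 0.05, adjusted p = 7.8e-32). Of these 2 ligands, S100A8 was not among the 31 members found, and S100A9 was above 0 in 1 of the 16 libraries. AGER, the receptor for advanced glycation end products, rose from 1.68 ± 0.17 in P0 to 2.76 ± 0.14 in P15 (1.08, SE 0.11, adjusted p = 1.9e-09).

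Other calcium-binding families were counted in the same way. Among 18 tested cytosolic EF-hand genes, limma called 0 in P3 against P0 and 0 in P7 against P3. Over all tested genes, 4.47% and 1.84% were called. Of the 18, 14 and 12 had an unadjusted p below 0.05. The shares of all tested genes that passed on adjusted p alone were 68.7% and 58.2%. Adjusted p is the stricter measure, so the counts and shares are not like for like. From P0 to P15, 3 were called higher and 3 lower, beside 23.6% of all tested genes called, with a median log2 fold change of 0.14. CALB2 (calretinin, a calcium buffer) was at most 0.07 in P0 and 3.57 to 3.78 in P15, and EFHD1 at most 0.15 and 2.77 to 2.96. Both passed the filter of 1 CPM only through P15, so their direction was fixed by the filter. CIB1 rose from 6.87 ± 0.04 to 8.49 ± 0.05. The 3 lower genes were EFHD2, from 8.58 ± 0.04 to 6.67 ± 0.07, CETN2, from 6.47 ± 0.05 to 4.77 ± 0.07, and CAPN1, the large subunit of a calpain protease, from 8.46 ± 0.04 to 7.09 ± 0.03.

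Of 10 tested genes of membrane-binding C2-domain proteins, limma called 0 in P3 against P0 and 0 in P7 against P3. Over all tested genes, 4.47% and 1.84% were called. Of the 10, 9 and 10 had an unadjusted p below 0.05. The shares of all tested genes that passed on adjusted p alone, a stricter measure that is not like for like, were 68.7% and 58.2%. In P15 against P7, 1 was called higher (CPNE7, 1.34) and 2 lower, beside 25.5% of all tested genes. In P15 against P0, 2 were called lower and 0 higher, beside 23.6%. DYSF (dysferlin, which acts in membrane repair) fell from 5.76 ± 0.12 to 2.63 ± 0.10 (log2 fold change -3.12, SE 0.06, adjusted p = 2.1e-23), and CPNE5 from 1.83 ± 0.13 to 0.51 ± 0.10 (-1.32, SE 0.13, adjusted p = 8.4e-10). The median of this list was -0.25.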

How the data were processed

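RNA sequencing of 16 T24 libraries was analysed from the table of log2(CPM + 1) values that the authors deposited, with 2 decimals and 39007 symbols, 27 of them dates and 2 occurring more than once. Per the labels and the study's methods, poly(dT)-primed RNA was sequenced, aligned to GRCh38 with STAR 2.6.1a and counted per gene with featureCounts. Quantile normalization and median centring, named in the methods, are not seen in the deposited values, whose back-transformed sums are 999894 to 1000095 CPM. Strand setting and treatment of multi-mapping reads are not given in the sources used here. Raw counts were not used here. Depth was estimated from the steps between low values.

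Phases came from the labels. Genes with a mean above 1 CPM (13249) were tested with limma 3.58.1 in R 4.3.3 (empirical Bayes with a variance trend, 1 coefficient per phase over all 16 libraries), with Benjamini-Hochberg adjustment over all of them, for P3 against P0, P7 against P3, P15 against P7 and P15 against P0. The fit was tested on simulated data. CPM ratios are of phase means. Differences between 2 members were compared by 2-sided exact permutation tests. Exon lengths, overlaps and positions came from GENCODE release 44, and promoter windows from RefSeq. Every member is named, with values in each library for those called, and pathway and marker lists are given by count. Members, lists and pairs were chosen with earlier results of these data known, and ANXA2R and the neighbours of ANXA6 and ANXA8 were added after their values were seen. Alternatives were other filters, pseudocounts, scalings, blocks, variance priors, a test against the 2-fold bound and leaving out each library.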

Additional observations from a re-analysis of the deposited data

Results flagged for a closer look

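Dixon's criterion at the 95% level was applied to each tested member in each phase, 88 groups of 4 libraries, and 3 groups had a library apart, where 1 in 20 (4.4 groups) would be flagged by chance. S100A11 in P0 had replicate 2 at 8.75, higher than the next library by 0.07, with a ratio of gap to range of 0.88. S100A11 in P15 had replicate 3 at 8.51, lower than the next by 0.14, with a ratio of 0.88. S100A3 in P7 had replicate 3 at 3.07, lower than the next by 0.16, with a ratio of 0.94.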

How the results depend on the processing

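The P3 against P0 count of 1 called member became 0 with the filter of above 1 CPM in all 16 libraries (which removes ANXA10), with a pseudocount of 5 and with the test against a log2 fold change of 1, and 2 with a shift to the same median, which brought the log2 fold change of ANXA1 to 1.0. With no fold threshold the counts were 19 (P3 against P0), 14 (P7 against P3), 19 (P15 against P7) and 17 (P15 against P0). Leaving out each library in turn gave 1 throughout for P3 against P0, 0 for P7 against P3, 8 to 10 for P15 against P7 and 9 to 10 for P15 against P0. The calls lost there were ANXA10 and S100A5 against P7 (ANXA10 to -0.98 without P15 replicate 2, S100A5 to -0.95 without P15 replicate 1) and S100A5 against P0. Quantile normalization also took ANXA10 (-0.76) and S100A5 (-0.80) under 2-fold against P7, and a pseudocount of 5, which shrinks low genes, did so for ANXA10 and S100A5 in each P15 comparison and for S100A13 against P0. Of 2172 alternative values of 84 member fold changes, 2119 kept their side of the adjusted p threshold, 44 no longer passed it and 9 newly passed it. The direction reversed in 0 where the main or the alternative adjusted p was below 0.05. A change of sign with neither below 0.05 was counted as kept.

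Replicate numbers do not pair the libraries: same-numbered libraries correlated at -0.15 to 0.22 in 24 pairs (-0.12 to 0.22 by the number in the title). With the replicate block the counts were 1, 0, 10 and 10, and S100A16 in P15 against P0 had an adjusted p of 0.056 in place of 0.044. Members near 1 CPM are limited by the rounding and the added 1 of the deposited values.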
